A study of Mus musculus with 13 samples.

Results

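The desmosomal genes described here are 10 of the 23845 genes in the deposited tables, taken by name. They are the desmocollins Dsc2 and Dsc3, the desmogleins Dsg1b, Dsg2 and Dsg3, plakoglobin (Jup), the plakophilins Pkp1, Pkp2 and Pkp3, and desmoplakin (Dsp). They were compared between 6 wild-type (WT) and 7 JNK knockout primary mammary tumour cell lines of FVBN/J mice, measured by RNA-seq. JNK, the c-Jun N-terminal kinase, is a stress-activated protein kinase. Lines of both genotypes were derived from tumours on collagen I and then kept on standard dishes with serum, EGF and insulin. The labels do not give the JNK genes or exons that were removed or the driver of the tumours. Each sample is 1 line. The titles of WT replicates 4 and 5 share a number, so a shared animal is possible. The p-values therefore speak to the variation among the lines at hand. WT and knockout titles start with different letters, so any difference in colony or handling that goes with them cannot be told apart from genotype.

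Desmosomes are junctions that fasten neighbouring epithelial cells to each other and anchor their keratin filaments. Desmocollins and desmogleins are cadherins that reach across the gap between the cells. Inside the cell their tails bind plakoglobin and plakophilins, and these bind desmoplakin, which holds the keratins. Dsc2 and Dsg2 are the usual cadherins of simple epithelia, including the luminal cells of the mammary gland, whereas Dsc3 and Dsg3 are typical of the basal layers of stratified epithelia and of mammary myoepithelial cells. Dsg1 is typical of the upper layers of the epidermis.

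Total expected counts per line ran from 38298602 to 46689809. The label was checked on Mapk8 (JNK1) and Mapk9 (JNK2), whose knockout levels all lay below the WT range. The mean level of Mapk8 in CPM (read counts scaled to a common library size by TMM) was 29.8 ± 5.38 (SD, n = 6) in WT and 5.76 ± 1.32 CPM (SD, n = 7) in knockout lines. Epithelial markers (Epcam, Cdh1, Krt7, Krt8 and Krt18) were detected in every line. Knockout replicate 2 stood apart from the other knockout lines. It had the lowest knockout levels of Epcam (40.8 CPM) and Cdh1 (92.3 CPM) and the highest of Krt5 (12403 CPM), Trp63 (242.9 CPM) and Zeb1 (80.0 CPM).

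Of the 10 desmosomal genes, Dsc3 and Dsg1b rose in the knockout lines, Dsg2, Dsc2 and Pkp2 fell, and Dsg3, Dsp, Pkp1, Jup and Pkp3 did not pass the test. The test was edgeR's quasi-likelihood F test on all 13058 genes with enough reads, with Benjamini-Hochberg adjustment and a threshold of 0.05. Over all tested genes, 4.33% were called higher and 4.17% lower, against 2 and 3 of these 10. The levels of 3 genes (Dsg1b, Dsg2 and Pkp2) did not overlap between the groups, as for 4.05% of all tested genes. The median log2 fold change (knockout minus WT) was 0.44 over the 10 genes and 0.01 over all tested genes, and the median of its absolute size was 1.37 against 0.33. Dsc3 and Dsg1b entered the test only through their reads in the knockout lines and so had to differ in level, although a call was not fixed. Their edgeR p-values with the filter are therefore given as a description. The counts and medians over the 10 genes likewise describe them and are no support for a change of the list. In bulk RNA, fewer cells of a type and less RNA per cell cannot be told apart.

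All desmosomal cadherin genes lie together on chromosome 18 (GRCm38.p6, chr18:19960930-20604526, 644 kb), in the order Dsc3, Dsc2, Dsc1, Dsg1c, Dsg1a, Dsg1b, Dsg4, Dsg3, Dsg2. These 9 genes are the only protein-coding genes of the RefSeq annotation in that span. The desmocollins are on the minus strand and the desmogleins on the plus strand. Next to each other, Dsc3 rose while Dsc2 fell at one end of the cluster. At the other end Dsg2 fell, and its neighbour Dsg3 had a higher mean in knockout lines without passing the test.

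**Figure D1:**
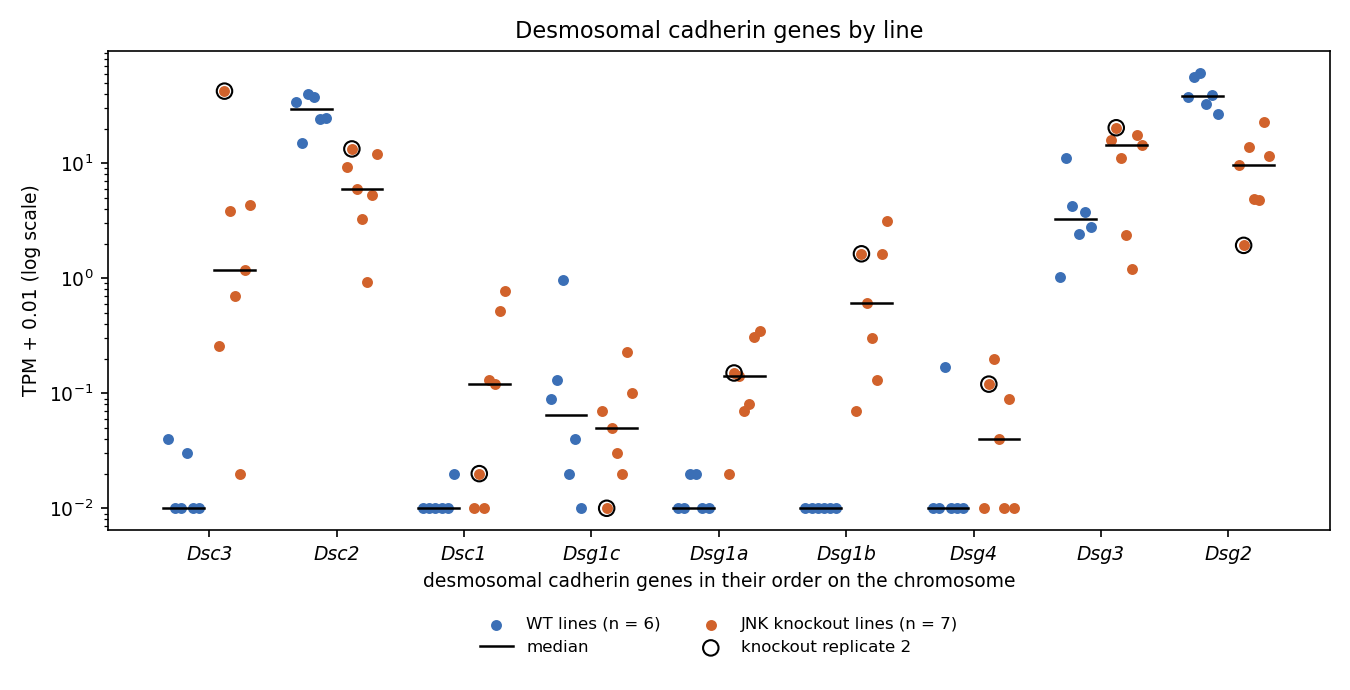
Level in TPM, which scales reads for transcript length and library (0.01 added, log scale), of the 9 desmosomal cadherin genes, in chromosomal order, for 6 WT (blue) and 7 JNK knockout lines (orange). Each point is 1 line, bars are medians, and the open circle marks knockout replicate 2. Points at the bottom of the scale are lines listed at 0 TPM. Dsc2 and Dsg2 sit lower and Dsc3 and Dsg1b sit higher in knockout lines.

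Dsc2 (chr18:20030633-20059554) had a lowest, median and highest level of 35.4, 70.4 and 102.7 CPM in the WT lines and 3.52, 15.5 and 37.1 CPM in the knockout lines. The ranges met at 1 line of each group, WT replicate 2 and knockout replicate 2, and the other 6 knockout lines were below all WT lines. The decrease was 3.59-fold (log2 fold change -1.84, SE 0.45, edgeR adjusted p = 0.026). Without knockout replicate 3 the adjusted p was 0.052. It passed in each of 12 further fits without a single line.

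Dsc3 (chr18:19960930-20002410), the basal desmocollin, was almost undetected in the WT lines: 5 reads in 2 lines (95% exact Poisson interval 1.62 to 11.7, counting error only) and 0 reads in the other 4. All 7 knockout lines had reads, 6937 together. In order of replicate, the knockout levels were 0.849, 143.6, 12.2, 2.13, 0.027, 3.66 and 14.6 CPM. Knockout replicate 2 held 79.0% of the knockout reads, whereas replicate 5, with 1 read, lay inside the WT range of 0 to 0.0708 CPM. Over pooled reads the level was 1250-fold higher in knockout lines, and the test called it higher (edgeR adjusted p = 0.0096). Since Dsc3 entered that test only through its knockout reads, this p-value is a description. Without knockout replicate 2, in a fit with no filter on low counts, it was still called higher (log2 fold change 7.96, edgeR adjusted p = 0.0083). With that filter Dsc3 could not be tested when any knockout line other than replicate 5 was left out. The fitted log2 fold change moved with the method, and the test did not call Dsc3 with limma-voom (adjusted p = 0.11) or limma on log2(TPM + 1) (adjusted p = 0.11).

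Dsg2 (chr18:20558074-20604526) had a lowest, median and highest level of 88.7, 116.1 and 208.9 CPM in the WT lines and 7.05, 34.7 and 77.5 CPM in the knockout lines. Every knockout line was below every WT line. Knockout replicate 2 had the lowest level and replicate 6 the highest of the knockout group. The decrease was 3.76-fold (log2 fold change -1.91, SE 0.43, edgeR adjusted p = 0.018), and it passed in each of the 13 fits that left out 1 line.

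Dsg3 (chr18:20510274-20541310), the basal desmoglein and a main target of autoantibodies in pemphigus vulgaris in humans, had a lowest, median and highest level of 2.15, 7.27 and 24.3 CPM in the WT lines and 4.3, 36.9 and 52.5 CPM in the knockout lines. In 5 knockout lines the level was above every WT line, while replicates 4 and 5, with 5.59 and 4.3 CPM, lay inside the WT range. The log2 fold change was 1.66 (SE 0.64) and did not pass the test (edgeR adjusted p = 0.12). DESeq2 called it higher (adjusted p = 0.040), as did limma-voom with sample weights (adjusted p = 0.026).

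Dsg1b (chr18:20376729-20412183), 1 of 3 mouse Dsg1 copies, had 0 reads in all 6 WT lines (95% exact Poisson interval 0 to 3.69, counting error only). The floor used, 3 reads over the group, equals 0.0116 CPM. The knockout lines, in order of replicate, had 0.125, 3.43, 1.18, 0.559, 0.352, 3.14 and 6.68 CPM, 666 reads in all, of which replicate 7 held 45.1%. The pooled knockout level was about 200-fold above that floor of 3 reads over the WT group, and the gene was called higher (edgeR adjusted p = 0.010). Since Dsg1b entered that test only through its knockout reads, this p-value is a description. With the filter on low counts Dsg1b could not be tested when any knockout line other than replicate 1 was left out. Without knockout replicate 2 and with no filter it was still called higher (log2 fold change 9.40, edgeR adjusted p = 0.014). Limma on log2(TPM + 1) did not call it (adjusted p = 0.067). The assignment of reads among the Dsg1 copies is uncertain. Of the 150-base windows of the Dsg1b transcript, 23.3% occur unchanged in Dsg1a and 2.78% in Dsg1c, and Dsg1b counts were not whole in 6 lines. With Dsg1a and Dsg1b summed, the increase passed (edgeR adjusted p = 0.0026). With Dsg1c added as well it did not (log2 fold change 3.06, edgeR adjusted p = 0.11), where WT replicate 3 contributed 61 Dsg1c reads. The desmocollins Dsc2 and Dsc3, and likewise Dsg2 and Dsg3, share no such window.

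The remaining cadherin genes of the cluster had too few reads for the test. Dsc1 had 1 read in all WT lines together and 209 in the knockout group. Dsg1a had 2 and 161, and Dsg4 had 12 and 34. Dsg1c was the exception, with 77 reads in WT and 33 in knockout lines, but 61 of the WT reads came from WT replicate 3. All 12 WT reads of Dsg4 came from that line as well. No line had more than 2.40 CPM of any of these genes.

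Shares of summed TPM, which corrects for transcript length, show the make-up of each cadherin family within a line. Dsc2 made up at least 99.9% of desmocollin TPM in every WT line. In the knockout lines its share was 23.9% at the lowest, 76.0% at the median and 97.3% at the highest. Dsc3 held 76.1% in knockout replicate 2, a median of 16.8% in the group, and 0.971%, resting on 1 read, in replicate 5. Dsg2 held 83.5% to 97.2% of desmoglein TPM in WT lines and 7.97% to 77.2% in knockout lines, and the ranges did not overlap. Dsg3 held 2.62% to 16.3% in WT lines and 19.5% to 84.3% in knockout lines, again with no overlap. Dsg1b held up to 10.7% in the knockout group. The summed TPM of all 9 cadherin genes was 54.4 at the lowest, 72.5 at the median and 106.3 at the highest in WT lines, and 7.17, 35.7 and 79.7 in knockout lines. Knockout replicate 2, with the highest knockout sum, was the only knockout line inside the WT range. These sums are not scaled by TMM. Over all tested genes TPM ran lower in knockout lines (median log2 fold change -0.19 with 1 added), so part of the lower sums can come from scaling.

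**Figure D2:**
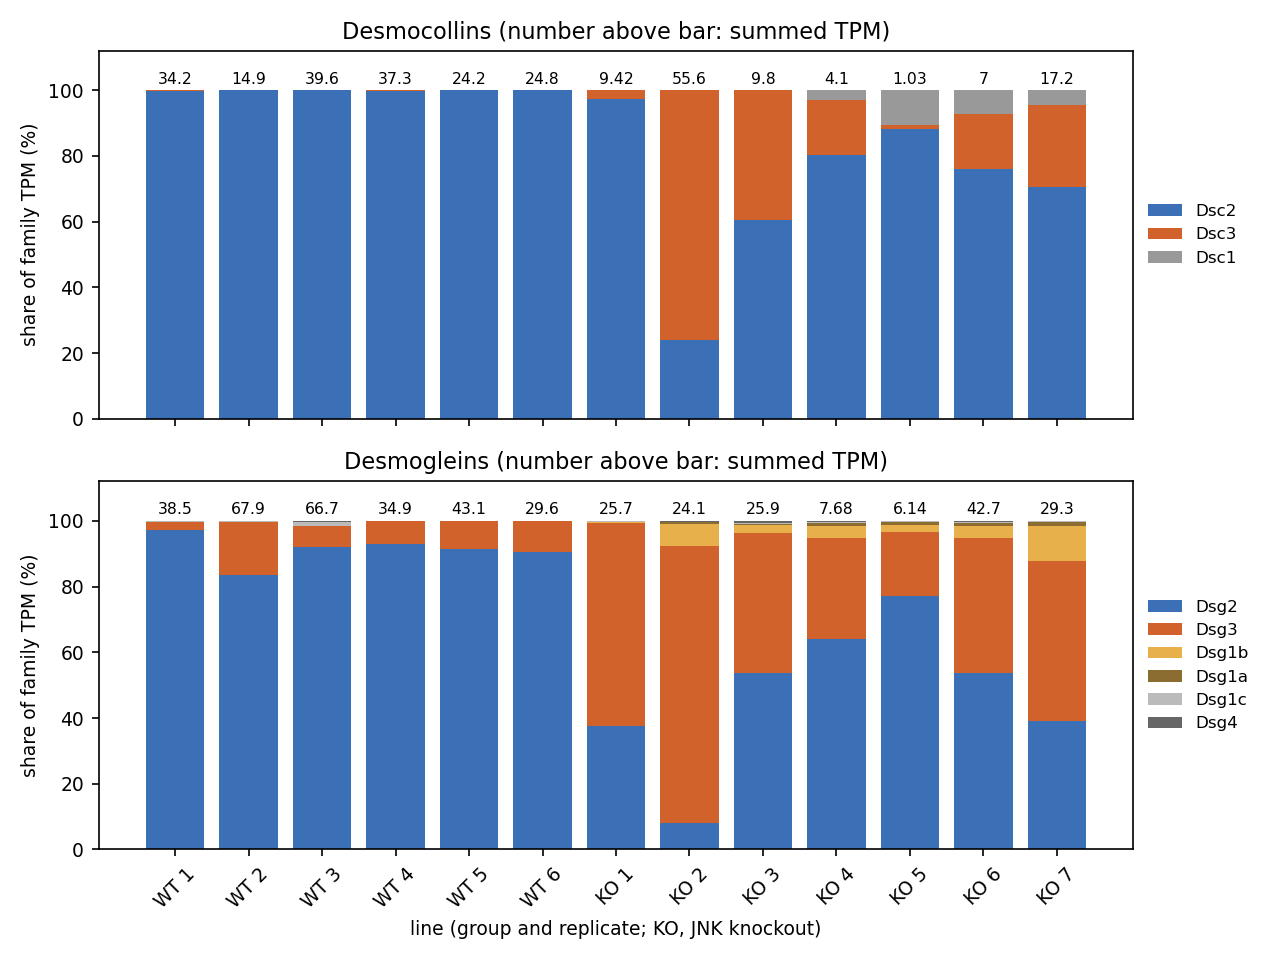
Share (%) of summed desmocollin TPM (top) and desmoglein TPM (bottom) held by each gene in each of the 13 lines, with the family's summed TPM above each bar. Dsc2 and Dsg2 (blue) fill most of each WT bar, and Dsc3 and Dsg3 (orange) with Dsg1b (yellow) take a larger part of the knockout bars.

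The balance of the genes within a line was also tested on 6 log2 ratios of TPM (0.1 TPM added to each value), by a two-sided exact permutation test over all splits of the 13 lines with Benjamini-Hochberg adjustment over the 6 ratios. A ratio restates the changes of its 2 genes. The Dsg3/Dsg2 ratio rests on reads of both genes in all lines. It was -3.59 ± 0.90 (SD, n = 6) in WT lines and 0.10 ± 1.66 (SD, n = 7) in knockout lines, a difference of 3.69 on the log2 scale (exact permutation p = 0.0012, adjusted p = 0.0023). The WT values ran from -5.08 to -2.34 and the knockout values from -1.90 to 3.34, so that all 7 knockout lines lay above the WT range, including replicates 4 and 5, in which Dsg3 itself was within the WT range. More Dsg3 than Dsg2 was measured in knockout replicates 1, 2 and 7 and in no WT line. Since Dsg2 was itself lower in every knockout line, the p-value of the ratio is no added support for a change of Dsg3.

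The Dsc3/Dsc2 ratio was -8.01 ± 0.46 (SD, n = 6) in WT and -1.79 ± 2.01 (SD, n = 7) in knockout lines, with no overlap (exact permutation p = 0.0012, adjusted p = 0.0023). The Dsg1b/Dsg2 ratio was -8.67 ± 0.46 (SD, n = 6) and -3.46 ± 1.87 (SD, n = 7), with no overlap either (exact permutation p = 0.0012, adjusted p = 0.0023). In WT lines the numerator of both ratios was close to or at 0 reads, so the WT values reflect the added 0.1 TPM and the level of Dsc2 or Dsg2. The same holds for Dsc3/Dsc2 in knockout replicate 5, where the ratio of -3.20 rests on 1 Dsc3 read and a low Dsc2 level (0.91 TPM). The lack of overlap in Dsc3/Dsc2 is therefore no evidence of more Dsc3 in every knockout line. That in Dsg1b/Dsg2 followed from its 2 genes, with 0 Dsg1b reads in WT lines and Dsg2 lower in every knockout line. Its p-value is therefore no added support. Sizes of the differences in both ratios depend on the amount added, and they ran from 3.83 to 8.84 for Dsc3/Dsc2 and from 3.09 to 8.16 for Dsg1b/Dsg2 under the other settings with all lines or with WT replicates 4 and 5 averaged.

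**Figure D3:**
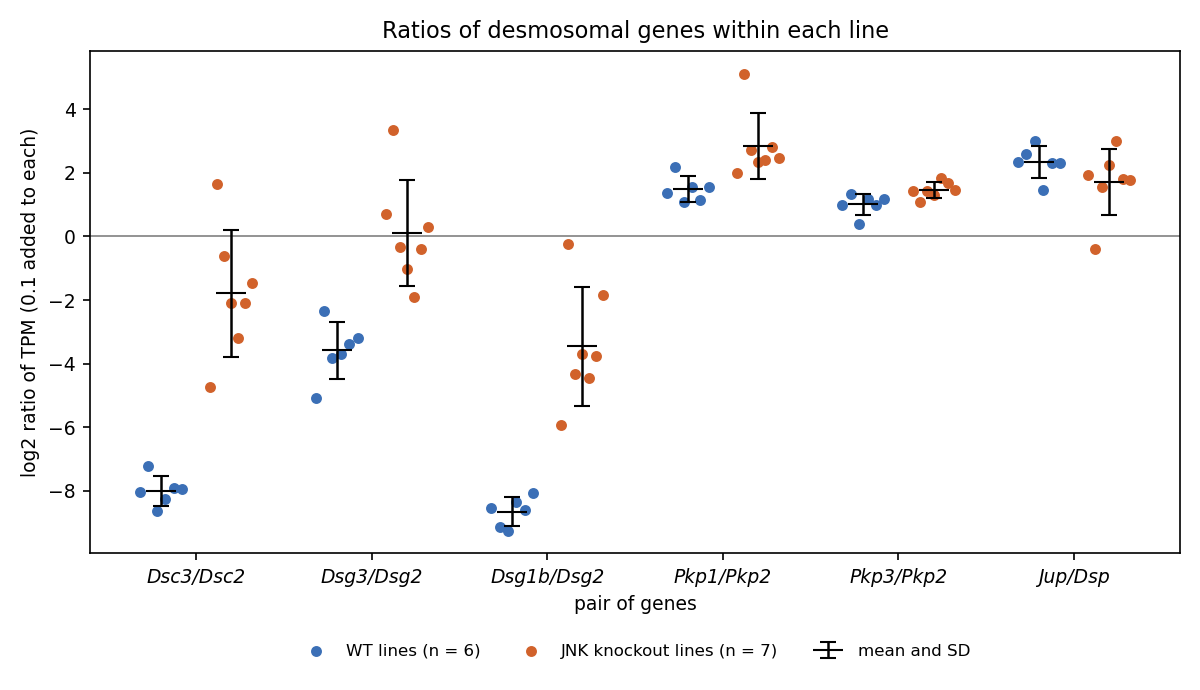
Log2 ratio of TPM (0.1 added to each gene) within each line for 6 pairs of desmosomal genes, in 6 WT (blue) and 7 knockout lines (orange). Points are lines and bars show the mean and SD of each group. The groups are apart for the 3 cadherin pairs and overlap for the plakophilin pairs and Jup/Dsp.

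Among the plaque genes, plakoglobin (Jup, chr11:100368856-100397839), the catenin shared by desmosomes and adherens junctions, was abundant in all lines. Its lowest, median and highest levels were 363.9, 482.6 and 846.9 CPM in WT lines and 337.0, 533.6 and 640.2 CPM in knockout lines. The groups overlapped almost fully, with 6 of 7 knockout lines inside the WT range (log2 fold change -0.12, SE 0.23, edgeR adjusted p = 0.78).

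Desmoplakin (Dsp, chr13:38151294-38198577) had a lowest, median and highest level of 165.0, 196.3 and 274.3 CPM in the WT lines and 115.3, 297.1 and 1628 CPM in the knockout lines. Knockout replicate 2 was far above all other lines, replicates 1, 6 and 7 were moderately above the WT range, and replicate 5 was below it. The log2 fold change of 1.07 (SE 0.52) did not pass the test (edgeR adjusted p = 0.21) and was 0.24 without knockout replicate 2. The Jup/Dsp ratio was 2.34 ± 0.50 (SD, n = 6) in WT and 1.71 ± 1.04 (SD, n = 7) in knockout lines, a difference that did not pass (exact permutation p = 0.20, adjusted p = 0.20). Without knockout replicate 5, in which Dsp was lowest, the ratio passed (difference -0.85, exact permutation test, adjusted p = 0.041). It did not pass in the other 12 tests without a single line. Without knockout replicate 2 the difference was -0.28 (exact permutation test, adjusted p = 0.35).

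Pkp1 (chr1:135871394-135919207), the plakophilin that is most abundant in stratified epithelia, had a lowest, median and highest level of 205.7, 293.5 and 454.4 CPM in WT lines and 321.3, 445.3 and 1613 CPM in knockout lines. All knockout lines were above 5 of the 6 WT lines, and only knockout replicates 2 and 6 were above all of them. The log2 fold change of 0.96 (SE 0.37) did not pass (edgeR adjusted p = 0.11) and was 0.49 without knockout replicate 2.

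Pkp2 (chr16:16213345-16272712), the plakophilin typical of simple epithelia and heart, had a lowest, median and highest level of 57.9, 62.2 and 90.0 CPM in WT lines and 28.6, 47.6 and 54.6 CPM in knockout lines. Every knockout line was below every WT line, by a small margin. The decrease was 1.49-fold (log2 fold change -0.58, SE 0.16, edgeR adjusted p = 0.037). Of 13 fits without a single line, 4 called it, and the edgeR adjusted p ran from 0.032 to 0.070.

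Pkp3 (chr7:141078229-141090511), which is found in most epithelia, had a lowest, median and highest level of 113.7, 137.1 and 152.5 CPM in WT lines and 60.3, 132.0 and 174.2 CPM in knockout lines. The groups overlapped, with only knockout replicate 2 well below the rest (log2 fold change -0.08, SE 0.19, edgeR adjusted p = 0.83).

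Within the plakophilins, the Pkp1/Pkp2 ratio rose from 1.49 ± 0.40 (SD, n = 6) in WT to 2.84 ± 1.05 (SD, n = 7) in knockout lines (exact permutation p = 0.0029, adjusted p = 0.0044), with 6 of 7 knockout lines above the WT range. The Pkp3/Pkp2 ratio rose by 0.45 on the log2 scale (exact permutation p = 0.0082, adjusted p = 0.0098), with 5 of 7 knockout lines above the WT range. Both ratios share Pkp2, which was itself lower in every knockout line, so their p-values are no added support for its decrease. Pkp2 made up a median of 17.0% of plakophilin TPM in WT lines and 10.1% in knockout lines.

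**Figure D4:**
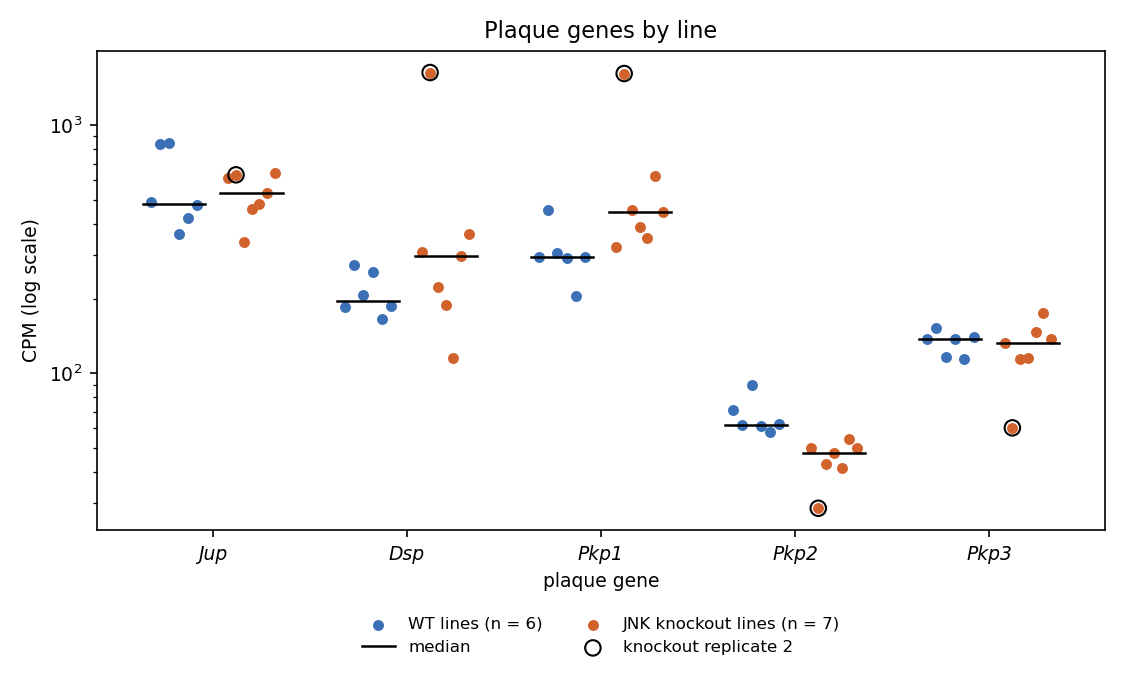
CPM (log scale) of the 5 plaque genes in 6 WT (blue) and 7 knockout lines (orange). Each point is 1 line, bars are medians, and the open circle marks knockout replicate 2, the highest line for Dsp and Pkp1 and the lowest for Pkp2 and Pkp3. The groups are apart for Pkp2 alone.

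On the length-scaled TPM scale the mean levels in WT lines ran in the order Jup (207.6), Pkp1 (125.8), Pkp3 (88.7), Pkp2 (43.9), Dsg2 (42.3), Dsp (39.6), Dsc2 (29.2), Dsg3 (4.21), Dsc3 (0.00833) and Dsg1b (0). Pkp2 was above Dsg2 in only 3 of 6 lines and Dsg2 above Dsp in 4 of 6, so these neighbours did not differ beyond their spread. In knockout lines the order was Pkp1 (212.6), Jup (164.9), Dsp (72.3), Pkp3 (71.9), Pkp2 (25.6), Dsg3 (11.8), Dsg2 (9.94), Dsc3 (7.51), Dsc2 (7.14) and Dsg1b (1.06). Pkp1 was above Jup in 3 of 7 knockout lines, Dsg3 above Dsg2 in 3 of 7, and Dsp above Pkp3 and Dsc3 above Dsc2 in 1 of 7. That line was replicate 2, with 261.0 TPM of Dsp and 42.3 TPM of Dsc3.

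The knockout lines differed among themselves. The difference in log2 CPM (prior count 2) from the WT mean ran from -4.22 in replicate 5 to -0.84 in replicate 2 for Dsc2, and from -4.17 in replicate 2 to -0.72 in replicate 6 for Dsg2. Replicate 2 therefore combined the smallest Dsc2 decrease with the largest Dsg2 decrease. It also had the highest knockout levels of Dsc3, Dsg3, Dsp and Pkp1 and the lowest of Pkp2 and Pkp3. Replicate 5 had the lowest knockout levels of Dsc2, Dsc3, Dsg3 and Dsp. Within groups, 73 pairs of desmosomal genes were correlated across lines (log2 CPM), and none passed adjustment over all pairs, by Pearson r (lowest adjusted p = 0.25, with 12 pairs under 0.05 before adjustment) or by Spearman rho (lowest adjusted p = 0.20, with 7 pairs). The pair with the lowest raw p by rho was Dsc2 with Dsp in knockout lines (Spearman rho = 0.96, exact permutation p = 0.0028, adjusted p = 0.20; Pearson r = 0.81, exact permutation p = 0.031, adjusted p = 0.25; n = 7), with r = 0.88 without the 2 lines farthest from the Dsc2 median. By Pearson r it was Dsc2 with Dsg3 in knockout lines (Pearson r = 0.90, exact permutation p = 0.0052, adjusted p = 0.25; Spearman rho = 0.75, exact permutation p = 0.066; n = 7), with r = 0.76 without those 2 lines.

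**Figure D5:**
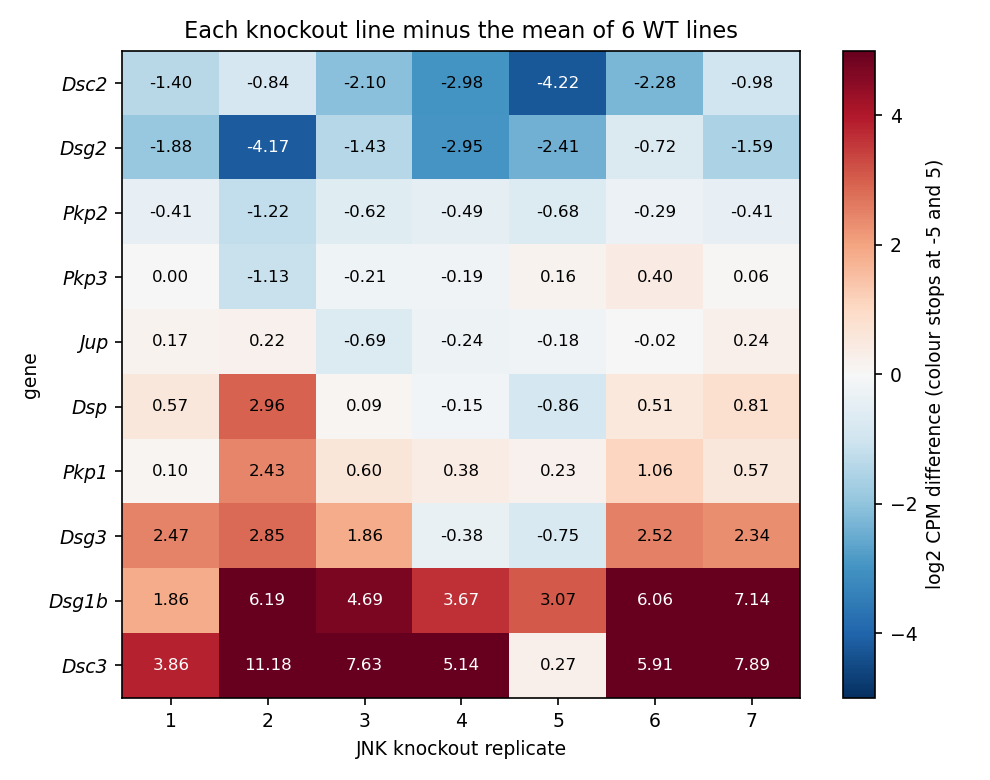
Difference in log2 CPM (prior count 2) between each of the 7 knockout lines and the mean of the 6 WT lines for the 10 desmosomal genes. Blue is lower and red higher than the WT mean, and the colour stops at -5 and 5. Dsc2, Dsg2 and Pkp2 are lower than the WT mean in all 7 lines. Dsc3, Dsg1b and Pkp1 are higher than it in all 7, by as little as 0.10 for Pkp1 in replicate 1 and 0.27 for Dsc3 in replicate 5. That Dsc3 value rests on 1 read and lies inside the WT range, so it is no evidence of more Dsc3 in replicate 5.

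Genes that work with these proteins were taken from lists by role. Of the other 9 desmosome genes, 5 could be tested. Perp, a membrane protein of desmosomes and a p63 target, rose from 409.8 ± 153.8 CPM (SD, n = 6) to 1050 ± 300.1 CPM (SD, n = 7), with all knockout lines above all WT lines (log2 fold change 1.36, SE 0.28, edgeR adjusted p = 0.013). The plakophilin relative Pkp4, the cornified-envelope plakins Ppl and Evpl, and corneodesmosin (Cdsn) did not pass. All 4 keratins on the list changed: Krt5 and Krt14, the basal pair, rose, with all knockout lines above all WT lines, and Krt8 and Krt18, the luminal pair, fell. Krt8 was close to the threshold (edgeR adjusted p = 0.047) and was called in 3 of 13 fits without a single line. Krt14 went from a median of 101.9 CPM to 2018 CPM (log2 fold change 4.65, SE 0.68, edgeR adjusted p = 0.0026). Krt18 went from a median of 2019 CPM to 855.4 CPM (log2 fold change -1.26, SE 0.18, edgeR adjusted p = 0.0026).

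Of 6 adherens junction genes only Cdh3 (P-cadherin, a basal cadherin) was called, and it was higher (log2 fold change 4.26, SE 1.08, edgeR adjusted p = 0.030). Knockout replicate 2 had the highest level (321.4 CPM), and replicates 5 (3.54 CPM) and 6 (5.97 CPM) lay inside the WT range of 0.889 to 10.7 CPM. Without knockout replicate 2 the mean knockout level was 46.3 CPM instead of 85.6 CPM and Cdh3 was still called (log2 fold change 3.37, edgeR adjusted p = 0.043). It was not called without WT replicate 1, 2, 3 or 6 or knockout replicate 1 (edgeR adjusted p up to 0.059). E-cadherin (Cdh1) had a log2 fold change of -0.71 (SE 0.34, edgeR adjusted p = 0.20). Its partners Ctnnb1, Ctnna1, Ctnnd1 and Vcl also did not pass. Of 10 transcription factors, 2 were higher and none lower. Trp63 (p63), a regulator of basal epithelial genes, was among them (log2 fold change 4.55, SE 0.90, edgeR adjusted p = 0.011). Its level in knockout replicate 4 (5.61 CPM) lay inside the WT range of 0.331 to 6.03 CPM. Without knockout replicate 2 its mean knockout level was 41.8 CPM instead of 70.6 CPM, and it was still called (log2 fold change 3.79, edgeR adjusted p = 0.012). Grhl3, a grainyhead factor of the epidermal barrier, rose with no overlap between the groups (log2 fold change 3.02, SE 0.51, edgeR adjusted p = 0.0052). Snai1, Snai2, Twist1, Zeb1 and Zeb2, repressors and regulators of epithelial-mesenchymal transition, did not pass. Without knockout replicate 2, Zeb2 was called lower (log2 fold change -3.73, edgeR adjusted p = 0.019) and Grhl1 higher (edgeR adjusted p = 0.039). Of 5 regulators of desmosome turnover, Prkca, the kinase PKCα that loosens desmosomal adhesion, fell with no overlap between groups (log2 fold change -1.33, SE 0.24, edgeR adjusted p = 0.0068). Adam17, a sheddase of desmogleins, fell as well (log2 fold change -0.66, SE 0.18, edgeR adjusted p = 0.038), and was called in 4 of 13 fits without a single line.

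Markers of other cell types moved beside these genes. All 3 basal markers (Krt5, Krt14 and Trp63) rose, with summed levels of 48.6 to 233.7 CPM in WT and 515.6 to 20983 CPM in knockout lines. The highest sum was that of knockout replicate 2, and the next was 4736 CPM in replicate 1. Of 5 epithelial markers, Krt8 and Krt18 fell, and Epcam, Cdh1 and Krt7 did not pass. Krt7 went the other way, from a median of 716.2 CPM in WT to 1478 CPM in knockout lines (log2 fold change 1.00, edgeR adjusted p = 0.33). Without knockout replicate 2, where Krt7 was lowest (20.4 CPM), it was called higher (log2 fold change 1.22, edgeR adjusted p = 0.016). The epithelial sums were 6040 to 6933 CPM in WT and 1068 (replicate 2) to 5465 CPM in knockout lines, 4102 CPM or more in those other than replicate 2. Of 8 fibroblast markers, 7 were tested and 2, Col1a1 and Col1a2, fell. The fibroblast sums were 12.2 to 480.3 CPM in WT and 3.05 to 56.0 CPM in knockout lines. WT replicate 3 held the highest sum, and the other WT lines had at most 58.8 CPM, close to the 56.0 CPM of knockout replicate 2. Without WT replicate 3, Col1a2 still fell (log2 fold change -3.80, edgeR adjusted p = 0.020) and Col1a1 did not pass (log2 fold change -1.91, edgeR adjusted p = 0.053), nor did Col1a1 without knockout replicate 1 or 7. Dcn had a log2 fold change of 1.56 (edgeR adjusted p = 0.52), and Lum was at 0 in all lines but WT replicate 3, which had 4 reads. Of the immune markers only Cd68 had enough reads for the test, and endothelial and adipocyte markers were under 1 CPM in every line. The part of any of these cell types in the desmosomal changes was not tested.

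Genes whose level followed a desmosomal gene most closely were found by Pearson r over the 13 lines after removing each group's mean from log2 CPM, and are given as a description, since the lines share libraries and scaling. For Dsg1b and Dsc3, with 0 and 5 reads over the WT lines, r rests mainly on the knockout lines. For Pkp3 the closest gene was Cdh1 (r = 0.95), and for Dsp it was Sowahc (r = 0.94) followed by Vcl (r = 0.91), the adherens junction gene vinculin. For Jup it was Tbck (r = 0.95), for Pkp2 Wwc1 (r = 0.94), for Dsg2 Lrrc8e (r = 0.94) and for Dsc3 Zfp407 (r = 0.93). For Dsc2 it was Zfp933 (r = 0.91), for Pkp1 Adcy7 (r = 0.90), for Dsg3 Bbox1 (r = 0.90) and for Dsg1b Sorbs3 (r = 0.90). For Dsg1b, Zmym5 (r = 0.85) came next, followed by Sprr1b (r = 0.85), a cornified-envelope protein. Sprr1b was at 0.0 CPM in WT lines and a mean of 3.86 CPM in knockout lines. Vcl and Sprr1b are named for their role, and most other genes ranked below the closest are left out. Each r was picked as one of the highest among many genes over 13 lines. A high r is therefore no evidence of a link between the genes, or of a link to junctions or cornification. Knockout replicate 2 had the lowest knockout levels of Pkp3 (60.3 CPM) and Cdh1 (92.3 CPM). It had the highest of Dsp (1628 CPM) and Vcl (683.1 CPM). No r was computed without that line, so its weight in these values was not tested.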

How the data were processed

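RNA-seq of 13 lines was analysed. The authors deposited expected counts per gene. The submitters' processing notes name cutadapt, RSEM and the builds mm10 and GRCm38. They also deposited TPM for the same genes. Not given in the sources used here are tool versions, the aligner, the annotation release and strand use. RSEM divides reads that match several genes. Expected counts were rounded, kept by filterByExpr (13058 genes), scaled by TMM and tested with edgeR 4.0.16 in R 4.3.3 (quasi-likelihood F test, group as the only term, Benjamini-Hochberg over all tested genes, threshold 0.05). SE is the log2 fold change divided by the square root of F. CPM uses TMM-scaled libraries. Ratios used log2 TPM with 0.1 added. Alternatives were other scalings, filters and pseudocounts, DESeq2 1.42.0, limma 3.58.1, and fits without single lines. The fit was tested on simulated data. Positions are from RefSeq GRCm38.p6, matched by symbol for all 10 genes. The text names all 10 genes, members of the lists and each gene's closest gene, with Vcl, Zmym5 and Sprr1b from those ranked below. The genes and lists were chosen with earlier results of these data known. Intervals and floors cover counting error only.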

Additional observations from a re-analysis of the deposited data

Results flagged for a closer look

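In 20 groups of lines (10 genes in WT and knockout lines), 4 held a line whose gap to the nearest other line was large for the range of its group. The cutoff is set for about 1 in 20 with normally distributed values and independent groups. CPM values need not be normal and the groups share lines, so that rate may not hold here. Knockout replicate 2 was such a line for Dsc3 (143.6 CPM, next highest 14.6 CPM), for Dsp (1628 CPM) and for Pkp1 (1613 CPM). WT replicate 2 was such a line for Dsg3 (24.3 CPM). Without WT replicate 2 the Dsg3 log2 fold change was 2.21 (edgeR adjusted p = 0.053).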

How the results depend on the processing

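The decreases of Dsg2 and Dsc2 kept their direction and passed under every other method, scaling and filter at the 0.05 threshold. The number of genes called higher was 0 with a filter of CPM above 1 in at least 6 lines, which removes Dsc3 and Dsg1b, and 0 with limma on log2(TPM + 1). It was 1 with limma-voom and 1 at a threshold of 0.01, where the number called lower was 0. Leaving out 1 line at a time gave 0 to 2 called higher, where the filter removed Dsc3 or Dsg1b without some knockout lines, and 1 (without knockout replicate 3) to 3 called lower. In a fit without knockout replicate 2 and without the filter, added after seeing the data, the counts were 2 and 3. The log2 fold change of Jup reversed to 0.148 with limma-voom sample weights, and ran from -0.22 to 0.022 with 1 line left out, reversed without WT replicate 2 or 3. That of Pkp3 ran from -0.17 to 0.044, reversed without knockout replicate 2, and was 0.0049 when WT replicate 3 was left out too and 0.034 without replicate 2 and the filter. The causes were not tested. The Jup/Dsp ratio ran from -0.85 to -0.28 with 1 line left out, and the other 5 ratios passed under every setting. For Dsc3/Dsc2 and Dsg1b/Dsg2 this is no added support, since their numerators were close to or at 0 reads in WT lines. Nor is it for Dsg3/Dsg2, Pkp1/Pkp2 and Pkp3/Pkp2, whose denominators Dsg2 and Pkp2 were themselves lower in every knockout line. The ratios were also adjusted over 6 values, and single genes over all tested genes. On TPM the median log2 fold change of all genes was -0.19 (1 added) and -0.23 (0.1 added). DESeq2 called 1338 genes higher and 1070 lower among all genes, and limma-voom with sample weights 1410 and 1399, against 566 and 545. No paired analysis was possible because the labels give no replicate numbers shared by the groups. Depth limits Dsc3 and Dsg1b in WT lines, where 3 reads over the group equal 0.0116 CPM. Fits of the genes on the other lists without single lines were also chosen after seeing the data.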
